A study of Homo sapiens with 6 samples.

Results

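The genes described here are OPTN and 9 further genes of selective autophagy in HGC-27 cells, a long-used human line grown from an undifferentiated gastric cancer. They are the cargo receptors OPTN, SQSTM1, NBR1, CALCOCO2 and TAX1BP1, the kinase TBK1, and the ATG8-family genes MAP1LC3B, GABARAP, GABARAPL1 and GABARAPL2, 10 of the 58735 genes in the table. The group was chosen by gene name, but with the shACAT2 against shNC values of these same libraries known, OPTN in particular for being higher in shACAT2 cells. Its members are therefore described by their values, without a p. RNA sequencing covered 3 libraries of cells that received pSIH-H1-Puro-shACAT2, a vector for a short hairpin RNA against the thiolase gene ACAT2 (genotype label ACAT2 knockdown), and 3 of cells that received pSIH-H1-Puro-shNC, the control vector (genotype label WT). Both groups shared the vector backbone, 24 h with the vector and 7 days of puromycin, and both were puromycin-selected populations, so the hairpin was the stated difference between them. The hairpin sequence carried by the shACAT2 cells, of the pair used in the study, is not given, and nothing in the labels says that the 3 libraries of a group came from separate cultures, so p-values measure only the spread between these libraries.

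Selective autophagy removes chosen cargo, such as damaged mitochondria, bacteria, protein aggregates or pieces of endoplasmic reticulum. A receptor holds the cargo, often through ubiquitin chains on it, and at the same time binds an ATG8-family protein (LC3 or GABARAP) that is anchored by lipid in the growing autophagosome membrane. TBK1 phosphorylates several receptors, OPTN among them, which strengthens their hold on ubiquitin and LC3. Receptors and the ATG8 proteins inside the vesicle are degraded with the cargo in the lysosome, so mRNA levels do not give protein levels or the rate of autophagy, and neither was measured in these libraries.

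Levels are FPKM, that is, fragments divided by gene length in kilobases and by a divisor for the size of each library. This divisor differed from the total of fragments on genes in every library, and in shACAT2-1 it was below that total. How the divisor was set was not tested. The levels rest on 14086416 to 16067486 fragments on genes per library. Values of 3 libraries are always given in the order of their numbers. Fold changes are differences of log2(FPKM + 1), which understate changes of low genes, fitted with limma. The fit took in 13832 genes, those that averaged 1 FPKM or more in shNC or in shACAT2 cells. ACAT2 (ENSG00000120437, chromosome 6) measured 14.2, 11.7 and 12.7 FPKM in the shNC libraries and 6.19, 5.46 and 6.05 FPKM in the shACAT2 libraries (log2 fold change −1.01, SE 0.10, limma adjusted p = 0.0059, and 0.0512 without shNC-3). A library that stood apart was shACAT2-3, since 7477 genes had fragments there and in no other library, while such genes numbered 416 to 657 in each of the rest. The pair shNC-2 and shNC-3 was closer to each other (chi-square per gene 1.71) than the other pairs within a group (10.8 to 39.3). None of the 5 epithelial and none of the 5 gastric differentiation markers checked had a group mean of 1 FPKM, with TFF1 and GKN1 at 0 in all libraries. The mesenchymal and fibroblast markers VIM, ZEB1, COL1A1 and DCN were present, 2 of the 3 in each list. Of the 3 leukocyte and macrophage markers, PTPRC and CD68 were at or near 0, and CD14 measured 0.185 to 0.416 FPKM in the shNC and 0.424 to 0.768 FPKM in the shACAT2 libraries.

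As OPTN and GABARAPL1 had the highest fold changes of the group, their promoter sequences are given, as RefSeq lists them on GRCh38.p14, from 250 bases before to 50 bases after a transcription start. The OPTN window is chr10:13099832-13100131, plus strand, and the GABARAPL1 window is chr12:10212627-10212926, plus strand. Capitals mark a stretch of 11 bases in OPTN that matches the kappaB motif (the binding motif of NF-kappaB) on each strand. In GABARAPL1 they mark a cyclic AMP response element, TGACGTCA.
OPTN: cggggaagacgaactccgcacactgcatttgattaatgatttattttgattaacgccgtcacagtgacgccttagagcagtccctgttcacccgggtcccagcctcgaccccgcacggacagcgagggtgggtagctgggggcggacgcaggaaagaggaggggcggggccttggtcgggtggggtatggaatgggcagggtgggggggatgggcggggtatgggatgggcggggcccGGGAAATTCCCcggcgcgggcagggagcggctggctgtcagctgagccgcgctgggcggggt
GABARAPL1: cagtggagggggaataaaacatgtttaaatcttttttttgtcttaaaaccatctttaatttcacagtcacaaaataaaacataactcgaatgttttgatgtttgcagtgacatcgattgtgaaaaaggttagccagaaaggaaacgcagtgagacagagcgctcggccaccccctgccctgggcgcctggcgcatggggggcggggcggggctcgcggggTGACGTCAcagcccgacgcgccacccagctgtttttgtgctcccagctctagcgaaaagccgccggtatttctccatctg
All 10 genes matched a RefSeq entry, with 15 windows in all, and 6 motifs were looked for on both strands after the sequences had been read. The kappaB motif was in 5.91% of 35116 RefSeq windows and, among the 10 genes, in OPTN only. There the overlapping matches GGGAAATTCC and GGAAATTCCC, on opposite strands of the same stretch, began 12 and 11 bases before the listed start, positions −12 and −11. A second OPTN window, from a later start, held the same stretch. The TGACGTCA element, found in 1.85% of windows, was among the 10 genes in GABARAPL1 only, at position −30. The E-box, CACGTG, was in the TBK1 window (7.26% of all windows). The antioxidant element, TGACNNNGC, was in CALCOCO2 and MAP1LC3B windows (13.3% of all). The forkhead motif, GTAAACA, was in the CALCOCO2 window (3.42% of all), and the AP-1 motif, TGANTCA, was in none of the 15 windows (7.71% of all). A match of letters is a description only, and factor binding was not measured.

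OPTN (optineurin, ENSG00000123240) encodes a ubiquitin-binding receptor for mitochondria, bacteria and aggregates that is also a partner of RAB8 and myosin VI in membrane traffic. It lies on chromosome 10 of hg38 from 13099449 to 13138308, plus strand, with 5138 bases of exon. Its level was 1.98, 2.30 and 1.99 FPKM in the shNC libraries and 7.29, 7.58 and 7.11 FPKM in the shACAT2 libraries. The groups lay far apart, and the 3 libraries within each were close together. The mean was 2.09 ± 0.185 FPKM (SD, n = 3) in shNC cells and 7.33 ± 0.236 FPKM (SD, n = 3) in shACAT2 cells, a ratio of 3.50, from 156 to 647 fragments per library. The log2 fold change was 1.43 (SE 0.09), between 1.41 and 1.48 with any 1 library left out. With a pseudocount of 0.1 in place of 1 it was 1.76. Between libraries of the same number the FPKM ratio was 3.68, 3.29 and 3.58. Among the genes tested, 34 had a higher log2 fold change. OPTN was ninth of the 10 genes by mean FPKM in shNC cells and sixth in shACAT2 cells. Below it in shNC cells was only GABARAP, whose listed level rests on few fragments. In bulk RNA a change in the share of cells that express OPTN and a change in the RNA per cell cannot be told apart. Summed levels of most marker lists were also higher in every shACAT2 library. These were the 3 fibroblast markers (66.5 to 76.0 FPKM in shNC libraries, 122 to 153 FPKM in shACAT2 libraries) and the 3 mesenchymal markers (251 to 296 and 347 to 465 FPKM). The 5 epithelial markers (0.505 to 0.830 and 1.44 to 2.22 FPKM) and the 3 leukocyte and macrophage markers (0.222 to 0.488 and 0.497 to 0.836 FPKM, mostly CD14) were the others. Single genes carried these sums. The mesenchymal sum was mostly VIM, while ZEB1 overlapped between groups and CDH2 was near 0. The fibroblast sum was mostly COL1A1, and PDGFRB overlapped. Of the epithelial markers only CDH1 was higher without overlap, and PTPRC was lower by the mean. The gastric differentiation sum overlapped (0.0413 to 0.212 and 0.0428 to 0.287 FPKM). The part of these markers in the OPTN difference was not tested.

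**Figure D1:**
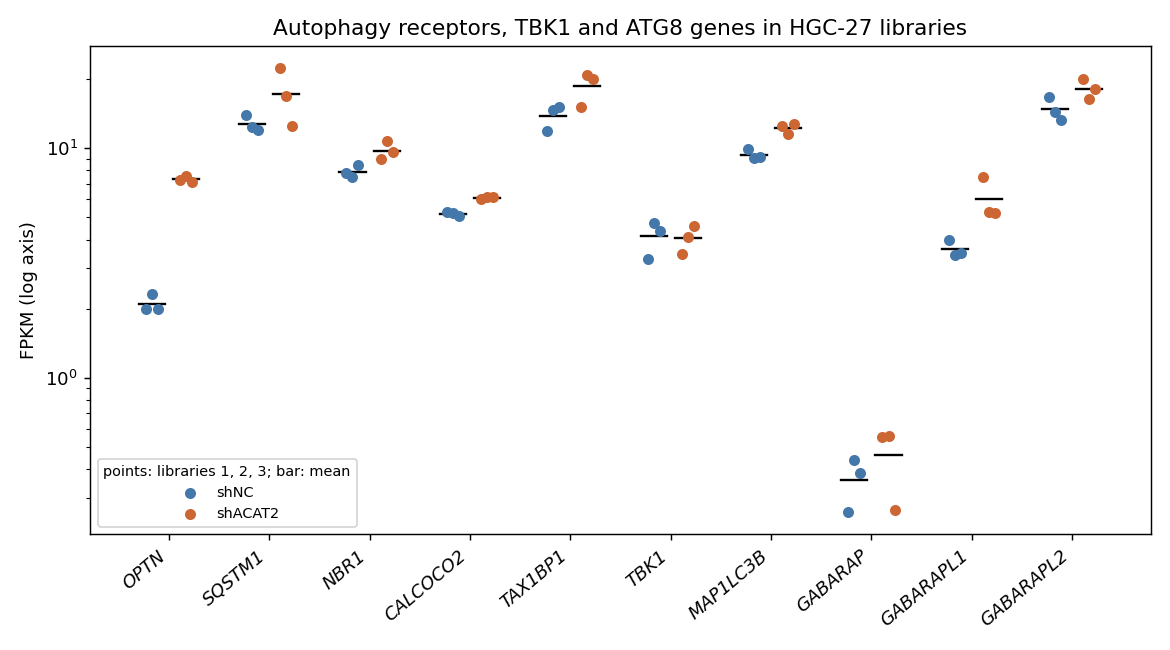
FPKM (log axis) of the 10 genes in each library, with 3 points per group for libraries 1, 2 and 3 and a bar at the group mean. The OPTN points of shACAT2 cells (7.11 to 7.58 FPKM) sit far above those of shNC cells (1.98 to 2.30 FPKM), while the points of SQSTM1, TAX1BP1, TBK1, GABARAP and GABARAPL2 overlap between groups.

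The other 4 receptors all had smaller fold changes than OPTN, between 0.20 and 0.40 on the log2 scale. SQSTM1 (p62, chromosome 5 from 179806398 to 179838078) encodes the receptor that gathers ubiquitinated proteins into condensates and also holds KEAP1. It measured 13.9, 12.4 and 12.0 FPKM in the shNC libraries and 22.3, 16.9 and 12.6 FPKM in the shACAT2 libraries. The shACAT2 libraries were spread widely, and shACAT2-3 lay within the shNC range. The means were 12.8 ± 1.03 and 17.3 ± 4.91 FPKM (SD, n = 3 each), and the log2 fold change of 0.38 (SE 0.20) ranged from 0.18 without shACAT2-1 to 0.57 without shACAT2-3. Of the SQSTM1 exon bases, 22.0% are shared with genes on the opposite strand, mostly MRNIP (1582 bases), and the strand setting of the counting is not stated.

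NBR1 (chromosome 17 from 43170481 to 43211689), a receptor related in domain layout to SQSTM1 that acts on aggregates and peroxisomes, measured 7.82, 7.46 and 8.47 FPKM in the shNC libraries and 8.99, 10.7 and 9.60 FPKM in the shACAT2 libraries. All 3 shACAT2 values lay above the shNC values, by a small margin. The log2 fold change was 0.27 (SE 0.10), with means of 7.91 ± 0.512 and 9.78 ± 0.887 FPKM (SD, n = 3 each). CALCOCO2 (NDP52, chromosome 17 from 48830988 to 48866522) encodes a receptor for bacteria and mitochondria. It measured 5.28, 5.20 and 5.08 FPKM in the shNC libraries and 5.99, 6.14 and 6.15 FPKM in the shACAT2 libraries. Its libraries varied little within each group (5.19 ± 0.0992 and 6.10 ± 0.0901 FPKM, SD, n = 3 each), and a ratio of only 1.18 separated the groups without overlap (log2 fold change 0.20, SE 0.08). TAX1BP1 (chromosome 7 from 27739331 to 27844564), a paralogue of CALCOCO2 that takes part in aggregate and ferritin turnover, measured 11.9, 14.6 and 15.2 FPKM in the shNC libraries and 15.1, 20.8 and 20.1 FPKM in the shACAT2 libraries. The groups overlapped through shACAT2-1, although in each number the shACAT2 library was the higher one, with ratios of 1.27, 1.42 and 1.33. Its log2 fold change was 0.40 (SE 0.15).

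TBK1 (chromosome 12 from 64451880 to 64502108), the kinase that acts on OPTN, had overlapping groups with nearly equal means. It measured 3.28, 4.74 and 4.36 FPKM in the shNC libraries and 3.44, 4.12 and 4.60 FPKM in the shACAT2 libraries. The lowest value of each group was in the library numbered 1. The means were 4.13 ± 0.758 and 4.06 ± 0.583 FPKM (SD, n = 3 each), and the log2 fold change of −0.02 (SE 0.14) changed sign with the library left out, from −0.14 to 0.07. In shNC libraries OPTN stood at 0.605, 0.486 and 0.456 times the FPKM of TBK1, and in shACAT2 libraries at 2.12, 1.84 and 1.54 times. OPTN was thus below TBK1 in all shNC libraries and above it in all shACAT2 libraries, both as levels per length.

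Among the ATG8 genes, GABARAPL1 (chromosome 12 from 10212458 to 10223130) had the highest fold change. It measured 3.97, 3.44 and 3.51 FPKM in the shNC libraries and 7.48, 5.29 and 5.24 FPKM in the shACAT2 libraries. All shACAT2 values were higher, and shACAT2-1 stood above the others of its group. The shNC mean was 3.64 ± 0.286 FPKM (SD, n = 3) and the ratio of the means was 1.65, with a log2 fold change of 0.58 (SE 0.14) that was 0.43 without shACAT2-1. MAP1LC3B (chromosome 16 from 87383995 to 87404779) encodes LC3B, the usual marker protein of autophagosomes. It measured 9.90, 9.04 and 9.14 FPKM in the shNC libraries and 12.6, 11.5 and 12.7 FPKM in the shACAT2 libraries, again without overlap (log2 fold change 0.35, SE 0.09). GABARAPL2 (GATE-16, chromosome 16 from 75566351 to 75577881) had the highest level of the ATG8 genes above the filter. It measured 16.6, 14.4 and 13.3 FPKM in the shNC libraries and 20.1, 16.4 and 18.1 FPKM in the shACAT2 libraries, where shACAT2-2 lay within the shNC range (log2 fold change 0.28, SE 0.12).

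GABARAP (chromosome 17 from 7240014 to 7242770, minus strand) was below the filter. It was listed at 0.260, 0.436 and 0.384 FPKM in the shNC libraries and 0.552, 0.558 and 0.265 FPKM in the shACAT2 libraries, from only 9 to 21 fragments per library. How much of this low level comes from the gene's own RNA and how much from the counting was not tested. In the annotation used (GENCODE 29), 55.7% of its exon bases, 1262 of 2266, are shared with other genes, 691 of them with AC120057.2 on the same strand, which was listed at 0 in all 6 libraries. How the counting treated fragments that fall on more than 1 gene is not stated. Of the near-identical copies of the ATG8 genes, MAP1LC3B2 measured 1.22 to 1.96 FPKM in shNC and 1.19 to 1.92 FPKM in shACAT2 libraries, and GABARAPL3 was listed at 0 in all 6.

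Over the group, 9 of 10 genes passed the filter, and 1 of these 9, OPTN, had an adjusted p under 0.05, where 5.1% of all genes tested did (3.3% higher and 1.81% lower in shACAT2 cells). By a fold rule, a log2 fold change above 1 with an unadjusted p under 0.05, it was again OPTN alone (0.983% of all genes tested were higher by that rule). Groups without overlap, all with shACAT2 higher, were seen for 5 genes, OPTN, NBR1, CALCOCO2, MAP1LC3B and GABARAPL1, and in 16.2% of all genes tested (14.5% were lower without overlap). With the replicate number as a block, 4 of the 9 genes were under the adjusted threshold, namely OPTN, GABARAPL1, MAP1LC3B and TAX1BP1, where 12.5% of all genes were. Since the group was selected on this contrast, none of these counts is a test of its members, and nothing is read from them. Of the 8 genes tested beside OPTN, 7 were higher by the mean and 1, TBK1, was lower, with a median log2 fold change of 0.32 against 0.016 for all genes tested. OPTN stood 0.85 above the next gene, GABARAPL1, on the log2 scale. Between libraries of the same number, 8 of the 10 genes were higher in the shACAT2 library each time, with TBK1 and GABARAP as exceptions. Whether the numbers are pairs is not settled. The share of all genes that were higher in this way, or by the mean, was not computed. Nothing is therefore read from this count or from the 7 genes higher by the mean.

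**Figure D2:**
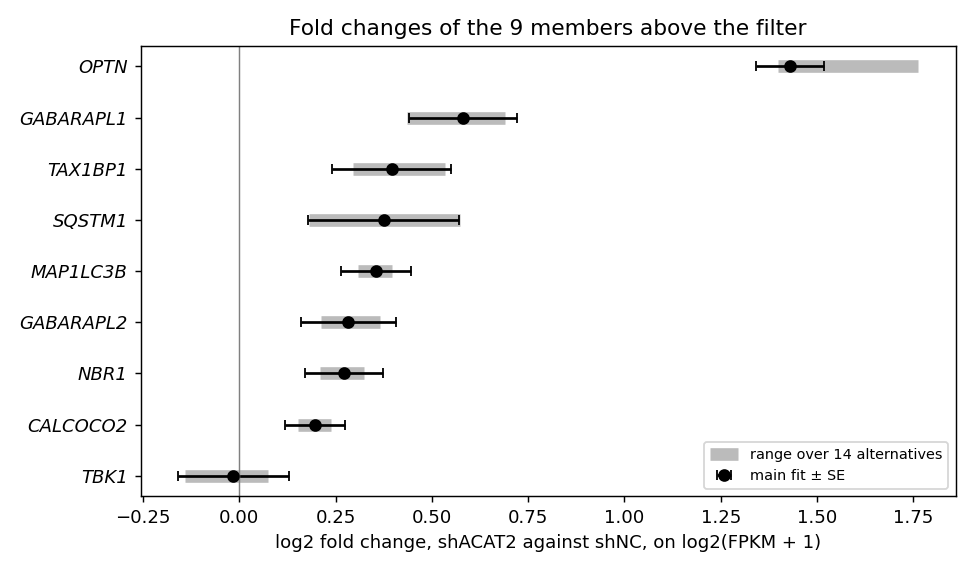
Log2 fold change of the 9 genes above the filter, shACAT2 against shNC (points, with SE as error bars), and the range over 14 alternatives of the processing (grey bars). OPTN at 1.43 lies apart from the others, which lie between −0.02 for TBK1 and 0.58 for GABARAPL1.

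OPTN took a larger share of the receptor mRNAs in shACAT2 cells. As OPTN was chosen for being higher in this contrast, the share restates that choice and was not tested. The FPKM of the 5 receptors summed to 40.9, 42.0 and 42.6 in the shNC libraries and to 59.7, 62.2 and 55.5 in the shACAT2 libraries. In turn, OPTN made up 4.85, 5.49 and 4.66% of this sum in the shNC libraries and 12.2, 12.2 and 12.8% in the shACAT2 libraries. Its share was thus 5.00 ± 0.435% against 12.4 ± 0.349% (SD, n = 3 each), a difference of 7.40 percentage points. Counted in fragments, which weights long transcripts more, the difference was 4.84 points. The shares of SQSTM1 (30.6 ± 3.14% and 29.1 ± 7.58%) and TAX1BP1 (33.1 ± 3.56% and 31.6 ± 5.68%) differed by less than their SD, and they remained the most abundant receptor mRNAs by mean share. The shares of NBR1 (18.9 ± 1.06% and 16.5 ± 1.29%) and CALCOCO2 (12.4 ± 0.497% and 10.3 ± 0.652%) were lower in shACAT2 cells. Their differences were −2.37 and −2.07 percentage points. The FPKM of both genes was higher in shACAT2 cells, so the lower shares reflect the larger sum. Without OPTN the receptor sum was 39.7 ± 0.883 FPKM in shNC cells, and it was 51.8 ± 3.14 FPKM when ACAT2 was knocked down (SD, n = 3 each). The sum of the 4 ATG8 genes was 28.1 ± 2.33 and 36.9 ± 3.50 FPKM (SD, n = 3 each), with GABARAP at its low listed level. The ratio of OPTN to SQSTM1 was 0.142, 0.186 and 0.166 in the shNC libraries and 0.326, 0.449 and 0.566 in the shACAT2 libraries, and it was highest in shACAT2-3, where SQSTM1 was lowest.

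**Figure D3:**
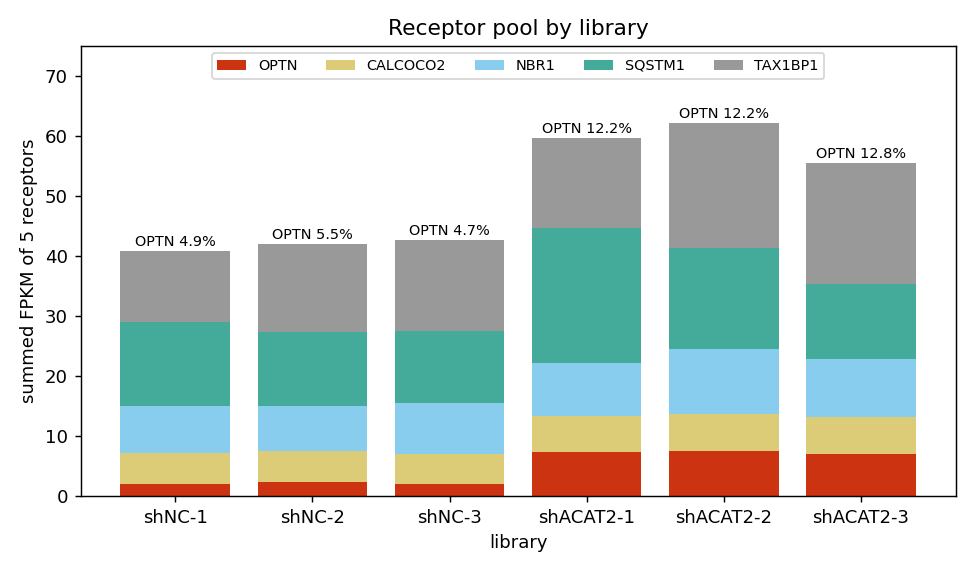
Summed FPKM of the 5 receptors in each library as stacked bars, with the share of OPTN printed above each. The sum lies between 40.9 and 42.6 FPKM in shNC and between 55.5 and 62.2 FPKM in shACAT2 libraries, and the OPTN segment is the one that widens most in proportion.

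Beyond the 10 genes, 100 other autophagy genes in 5 lists were set beside them, and 90 passed the filter. The lists were chosen with earlier results of these data known, so their counts and p-values do not come from lists set in advance. Of these 90, 4 rose and 1 fell at a limma adjusted p under 0.05, which is 5.56% against 5.1% of all genes tested. By the mean 55 were higher and 35 lower, with a median log2 fold change of 0.11 and a range from −0.67 to 0.81. No gene of the lists came near the fold change of OPTN. Groups did not overlap for 23 of the 90 genes with shACAT2 higher and 17 with shACAT2 lower. Over all genes tested these shares were 16.2% and 14.5%. With the replicate block 15 of the 90 were called, 10 higher and 5 lower, against 12.5% of all genes, and the genes that this adds are named with each list.

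Among 22 other selective receptors, which mark mitochondria, endoplasmic reticulum or ferritin rather than ubiquitin chains in most cases, 18 were tested, and 1 rose and none fell, with a median log2 fold change of 0.26. The 1 was BNIP3L (NIX), a mitochondrial receptor known from hypoxia and red cell maturation. It measured 4.35, 5.37 and 5.13 FPKM in the shNC libraries and 7.03, 8.31 and 7.29 FPKM in the shACAT2 libraries (log2 fold change 0.52, SE 0.11, limma adjusted p = 0.0423). Just short of the threshold on the lower side was NIPSNAP1, a mitochondrial protein that can recruit receptors, with a log2 fold change of −0.63 (SE 0.14, limma adjusted p = 0.0520). The replicate block added CALCOCO1, FUNDC1 and NCOA4 as higher and NIPSNAP1 and RTN3 as lower. Among 15 other ATG8 and conjugation genes, which attach the ATG8 proteins to lipid, 12 were tested and none passed the threshold, with a median of −0.0076. Nearest was ATG5, part of the conjugation enzyme, with a log2 fold change of 0.42 (SE 0.09, limma adjusted p = 0.0501), which the replicate block called.

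Among 23 genes of initiation and membrane supply, 22 were tested and 1 rose, with a median of 0.15. This was WIPI1, which binds the phosphoinositide made at the site where the autophagosome forms. It measured 1.54, 1.18 and 1.19 FPKM in the shNC libraries and 3.35, 2.64 and 3.17 FPKM in the shACAT2 libraries (log2 fold change 0.81, SE 0.12, limma adjusted p = 0.0169). ULK1, the starting kinase, and BECN1, of the lipid kinase complex, did not pass the test, with log2 fold changes of −0.08 and 0.16 (limma adjusted p = 0.693 and 0.362). The replicate block added NRBF2 and TMEM41B as higher.

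Among 20 genes for TBK1 adaptors and OPTN partners, 19 were tested and 2 rose, with a median of 0.060. CYLD, a deubiquitinase that binds OPTN and trims ubiquitin chains in NF-kappaB signalling, measured 2.14, 2.69 and 2.50 FPKM in the shNC libraries and 3.83, 4.41 and 4.83 FPKM in the shACAT2 libraries (log2 fold change 0.64, SE 0.11, limma adjusted p = 0.0280). RAB12, a small GTPase of endosome traffic that binds OPTN, measured 11.2, 11.4 and 11.2 FPKM in the shNC libraries and 16.5, 15.1 and 15.2 FPKM in the shACAT2 libraries (log2 fold change 0.44, SE 0.09, limma adjusted p = 0.0388). The OPTN partners RAB8A and MYO6 did not pass the test, with log2 fold changes of −0.29 and −0.20 (limma adjusted p = 0.175 and 0.589), although the replicate block called RAB8A as lower.

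Among 20 genes of vesicle fusion and autophagy transcription, 19 were tested, and none rose and 1 fell, with a median of 0.012. VPS41, of the complex that tethers autophagosomes and endosomes to lysosomes, measured 15.0, 17.6 and 17.2 FPKM in the shNC libraries and 8.36, 11.4 and 11.1 FPKM in the shACAT2 libraries (log2 fold change −0.65, SE 0.14, limma adjusted p = 0.0465). STX17, the SNARE protein of autophagosomes that fuse with lysosomes, had a log2 fold change of −0.67 (SE 0.16, limma adjusted p = 0.0638) and was called as lower by the replicate block. TFEB, the factor that switches on lysosomal and autophagy genes, did not pass the test, with a log2 fold change of 0.18 (SE 0.22, limma adjusted p = 0.669). The share of all genes called, 5.1% in the main fit, was 0.454 to 0.97% without 1 shNC library or without shACAT2-2. Without shACAT2-3 it was 5.1%. The 5 calls of the lists also changed with the library left out. All 5 were lost when any shNC library or shACAT2-2 was left out, and 4 of them, all but WIPI1, also without shACAT2-3, with limma adjusted p values of up to 0.103 for WIPI1, 0.131 for CYLD, 0.162 for BNIP3L, 0.192 for VPS41 and 0.193 for RAB12. Their log2 fold changes kept their direction with 1 library left out, from 0.76 to 0.89 for WIPI1, 0.57 to 0.71 for CYLD, 0.45 to 0.57 for BNIP3L, 0.40 to 0.46 for RAB12 and −0.72 to −0.52 for VPS41. Beside them, ATG5, NIPSNAP1, STX17 and the genes that only the block called were named after their values were seen.

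**Figure D4:**
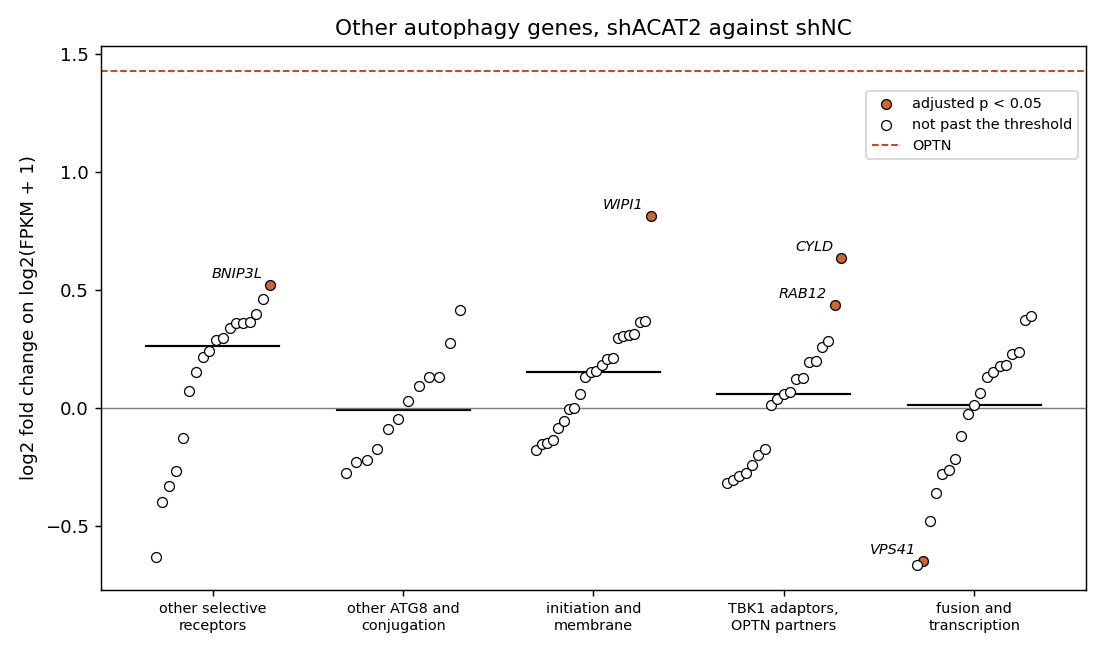
Log2 fold change of the 90 tested genes in 5 lists (points, with the list median as a bar), filled where the limma adjusted p was under 0.05. The dashed line is OPTN at 1.43, and the highest point below it is WIPI1 at 0.81.

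The pattern of OPTN over the 6 libraries was compared with every gene tested by Pearson's r on log2(FPKM + 1). With 6 points in 2 groups that differ, any gene that separates the groups tightly scores high, so r and the group means of these genes are descriptions here, given without a p. The 5 most alike were IFNGR1 (r = 0.998), NRP1 (0.997), NUBPL (0.996), SSR3 (0.996) and ARFGAP3 (0.995). IFNGR1, the ligand-binding chain of the interferon gamma receptor, measured 7.89 ± 0.530 and 18.7 ± 0.880 FPKM in the shNC and shACAT2 libraries (SD, n = 3 each, log2 fold change 1.15). NRP1, a co-receptor for semaphorins and vascular endothelial growth factor, measured 2.77 ± 0.0374 and 5.43 ± 0.183 FPKM (SD, n = 3 each, log2 fold change 0.77). ARFGAP3, a GTPase-activating protein of the Golgi, measured 8.51 ± 0.114 and 14.1 ± 0.311 FPKM (SD, n = 3 each, log2 fold change 0.66). NUBPL and SSR3 had smaller log2 fold changes, 0.27 and 0.40, and little spread within the groups (1.26 ± 0.0516 and 1.73 ± 0.0136 FPKM for NUBPL, 31.2 ± 0.900 and 41.5 ± 0.844 FPKM for SSR3, SD, n = 3 each).

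The genes around OPTN on chromosome 10 were looked up as well, after its values were known. Within 500 kb, 7 other genes were tested, and PHYH alone had an adjusted p under 0.05, where 5.1% of all genes tested did. PHYH, the peroxisomal enzyme that starts the breakdown of phytanic acid, lies 139.5 kb from OPTN and measured 6.82, 6.13 and 5.20 FPKM in the shNC libraries and 15.4, 11.8 and 15.5 FPKM in the shACAT2 libraries. It rose by 1.11 on the log2 scale (SE 0.14, limma adjusted p = 0.0107, and 0.0732 at most with 1 library left out). MCM10, 23.25 kb away between them and needed for DNA replication, did not pass the test, with a log2 fold change of −0.29 (SE 0.11, limma adjusted p = 0.182). CCDC3, on the opposite strand, overlaps OPTN where both genes start and shares 147 exon bases with it, or 2.86% of the OPTN exon bases. CCDC3 measured 7.52 to 9.62 FPKM in shNC and 9.64 to 12.3 FPKM in shACAT2 libraries (log2 fold change 0.26, SE 0.13, limma adjusted p = 0.293).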

How the data were processed

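Total RNA of HGC-27 cells was sequenced as 3 shNC and 3 shACAT2 libraries, grouped by the sample labels. The authors deposited FPKM values for 58735 genes. The submitters' processing notes name HISAT2 2.0.5, featureCounts 1.5.0-p3, DESeq2 1.20.0 and hg38, while strand and multi-gene settings are not given in the sources used here. FPKM values were turned back into fragments with the gene lengths (100% whole within 0.05).

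limma 3.58.1 (R 4.3.3, with a trend) was fitted to log2(FPKM + 1) of genes averaging 1 FPKM or more in one of the groups, with Benjamini-Hochberg adjusted p over all genes, and was tested on simulated data. Python 3.11.15, pandas 2.3.3 and matplotlib 3.10.9 served the other steps. The fit uses log values because the deposited unit is FPKM.

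The 10 genes and the 5 lists were chosen with earlier results of these data known. Named were the 10 genes, ACAT2, list genes with an adjusted p under 0.05 and no overlap (at most 4 per direction and list), the 5 genes most correlated with OPTN and copies of ATG8 genes. Others were chosen after their values were seen.

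Same-numbered libraries shared their deviations from the group mean (correlations 0.445, 0.126 and 0.171, all above 0.1). Numbers 2 and 3 were not told apart by this check, as shNC-2 with shACAT2-3 reached 0.198 and shNC-3 with shACAT2-2 reached 0.141. The check thus does not settle whether the numbers are pairs. The study's methods name no covariate, and the main fit, which gave the p-values above, had no block. A fit with the number as a block was an alternative, and it called 15 list genes in place of 5 and 4 of the 10 genes in place of 1. shNC-2 and shNC-3 differed by more than sampling noise and were kept as 2 libraries. Also tried were scaling by upper quartile or by library size, other filters, a pseudocount of 0.1, limma-voom on the recovered fragments, shNC-2 averaged with shNC-3, the fold rule and each library left out.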

Additional observations from a re-analysis of the deposited data

How the results depend on the processing

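The log2 fold change of OPTN was 1.43 and lay between 1.40 and 1.48 under 12 of 14 alternatives. It was 1.76 both with limma-voom on the recovered fragments and with a pseudocount of 0.1, as a smaller offset shrinks low values less. With 1 library left out in turn it was 1.41 to 1.48. The OPTN share of the receptor sum differed by 7.40 percentage points, by 7.20 to 7.65 with 1 library left out, and by 4.84 in recovered fragments. The number of the 10 genes called, 1, was 2 for genes reaching 10 fragments in all 6 libraries, with library-size scaling and with limma-voom (GABARAPL1 added). It was 4 with the replicate block, and 1 to 2 with 1 library left out (2 without shACAT2-1). The share of all genes called, 5.1% in the main fit, was 7.18, 6.17 and 8.42% in the first 3 of these settings. It was 12.5% with the block and 6.19% without shACAT2-1. As the group was selected on this contrast, these counts are no test of its members.

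Of the 90 list genes tested, 5 were called. These were 4 higher and 1 lower. The count was 3 with library-size scaling (2 higher and 1 lower) and 8 with limma-voom (4 and 4). It was 7 of 94 for genes reaching 10 fragments in all libraries (4 and 3) and 15 with the replicate block (10 and 5). It was 0 of 98 without a filter, 0 with shNC-2 averaged with shNC-3, 0 by the fold rule, and 0 to 9 with 1 library left out. Of all genes tested, 6.17% were called with library-size scaling, 8.42% with limma-voom, 7.18% with the fragment filter and 12.5% with the block. This share was 0.508% without a filter, 0.6% with the average, 1.5% by the fold rule and 0.454 to 6.19% with 1 library left out. Where limma called 0, the genes with an unadjusted p under 0.05 numbered 28 without a filter, 17 with the average and 28 under the fold rule, and 17 to 21 in the 4 fits with 1 library left out that gave 0. The cause of these changes was not tested. CAMK1D, a neighbour of OPTN with a log2 fold change of −0.04 (limma adjusted p = 0.801), was at 0.00056 with upper-quartile scaling. The median log2 fold change of all genes moved between −0.0355 and 0.0556 over the settings.

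Depth limits GABARAP most, with 9 to 21 fragments per library. With 3 libraries per group, and shNC-2 and shNC-3 unusually close, the spread is poorly known, and no protein or autophagic flux was measured.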
